A study of Mus musculus with 3 samples.

Results

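A set of 10 genes of angiogenic sprouting was followed across the cells of naive mouse brains and of mouse brains that carried mammary carcinoma metastases. They were chosen by name and not by any measured value: the ligands Vegfa, Pgf, Angpt2 and Apln, the receptors Kdr, Flt1, Tie1 and Aplnr, and the secreted proteins Esm1 and Igfbp3. All 10 were present among the 31053 genes of the RNA table. Each was described over the 13 clusters that the authors deposited and over the 4 brains, and cells holding Apln were then examined singly in cluster 6.

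The naive brains came from female C57BL/6 mice of 2 to 3 months without tumours. The other brains came from female C57BL/6 mice of the same age, taken about 2 weeks after E0771 cells, a mouse mammary carcinoma line, were injected into the carotid artery, so the metastases were seeded from the blood. No transgene or treatment is named for either group. Every brain was digested with papain and enriched for immune cells on a Percoll gradient, which vessel cells pass only in part, so the number of endothelial cells recovered is not a measure of vessel density. Antibodies to 6 surface proteins and a hashing antibody that differed by brain were added, and the brains were then run together in droplets, with RNA and antibody tags both read (CITE-seq). The labels describe the material as 1 brain hemisphere. Cells carried 1 of 4 hashing antibodies, which mark 2 brains of each condition, although the design text speaks of 6 samples.

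A vessel sprout is led by a tip cell and followed by stalk cells. VEGF-A, the protein of Vegfa, is released by cells short of oxygen and acts through VEGFR2, the protein of Kdr, on endothelial cells, while VEGFR1, the protein of Flt1, binds the same ligand tightly and signals weakly. Tip cells are known for apelin (Apln), endocan (Esm1) and angiopoietin-2 (Angpt2), and stalk cells for the apelin receptor (Aplnr). In the adult brain most endothelial cells are at rest and form the blood-brain barrier, and little sprouting takes place.

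Promoter sequences were set beside the values for the 3 members on which the comparison in cluster 6 turned: Apln and Flt1, which passed the test in opposite directions, and Igfbp3, which was high in a single brain. Each is the 250 bases before the RefSeq start site (GRCm38.p6), read 5′ to 3′ along the strand of transcription, with motif matches in capitals. The motifs searched were an ETS core (AGGAAG or CGGAAG, either strand; its reverse reads CTTCCT or CTTCCG), a hypoxia response core (ACGTG or GCGTG, either strand; its reverse reads CACGT or CACGC) and a TATA box (TATAAA, strand of transcription). None of these motifs overlapped another in the 3 windows.
Apln (chrX:48034854-48035103, minus strand): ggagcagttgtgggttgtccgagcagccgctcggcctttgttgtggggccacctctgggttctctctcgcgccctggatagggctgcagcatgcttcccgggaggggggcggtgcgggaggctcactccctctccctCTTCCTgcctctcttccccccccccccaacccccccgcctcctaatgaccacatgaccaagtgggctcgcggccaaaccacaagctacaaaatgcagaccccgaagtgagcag
Flt1 (chr5:147726012-147726261, minus strand): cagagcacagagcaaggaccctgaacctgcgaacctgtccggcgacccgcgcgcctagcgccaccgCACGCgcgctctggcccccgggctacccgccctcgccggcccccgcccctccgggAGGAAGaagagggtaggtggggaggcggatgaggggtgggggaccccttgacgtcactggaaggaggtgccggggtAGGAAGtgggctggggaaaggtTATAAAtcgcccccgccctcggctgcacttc
Igfbp3 (chr11:7213924-7214173, minus strand): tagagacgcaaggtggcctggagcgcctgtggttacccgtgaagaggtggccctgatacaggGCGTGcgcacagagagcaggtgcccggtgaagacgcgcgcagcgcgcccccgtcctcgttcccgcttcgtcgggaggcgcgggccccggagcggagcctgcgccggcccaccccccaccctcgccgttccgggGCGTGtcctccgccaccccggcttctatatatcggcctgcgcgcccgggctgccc
ETS factors are regulators of many endothelial genes, and the hypoxia core is bound by hypoxia-inducible factors. The Apln window held 1 ETS core, on the reverse strand, that began 113 bases before the start. The Flt1 window held 2 ETS cores, beginning 129 and 53 bases before the start, 1 hypoxia core beginning 184 bases before it and a TATA box beginning 31 bases before it. The Igfbp3 window held 2 hypoxia cores, at 188 and 55 bases before the start, and no ETS core. These matches are a description of letters: of 32851 windows of the same length, 39.2% held the ETS core, 38.6% the hypoxia core and 7.59% the TATA box. Windows were listed for 8 of the 10 members.

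The brains differed in depth. Naive 1 and naive 2 held 572 and 315 cells with medians of 1393.5 and 1230 UMIs (unique molecular identifiers, the counted RNA molecules), and metastasis 1 and metastasis 2 held 5360 and 6174 cells with medians of 7294 and 7707.5. Levels are given as CPM, the UMIs of a gene scaled to a common total in every sum of cells, and are therefore shares of the RNA counted. Clusters 0, 1, 3, 4 and 5 together held 8306 of the cells with metastases and 90.1% of their UMIs. The same clusters held 102 of the cells with a naive hashing antibody (11.5%) and 38.6% of their UMIs. In naive 1 these were 79 cells with 48.9% of the UMIs, and in naive 2 23 cells with 13.6%. Why cells of these clusters carried naive hashing antibodies was not tested. The 10 carcinoma markers summed to between 391 and 755 CPM in those 5 clusters with metastases, and to 406 and 616 CPM in cluster 7 of the same brains, so these markers did not set them apart and the 5 clusters are left unnamed.

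Cluster 6 was endothelial-like. Naive 1, naive 2, metastasis 1 and metastasis 2 gave 155, 98, 155 and 125 cells, with Cldn5, the claudin of the blood-brain barrier, first among its 10 leading genes and Ly6c1 also among them. Of 12 endothelial markers, 12, 12, 11 and 12 were detected, in the same order of brains. UMIs of at least 3 of these markers were found in 76.8%, 65.3%, 81.3% and 60.8% of the cells. Only 2 of the 10 leading genes, Cldn5 and Ly6c1, were on the endothelial list. Other classes were present too: 18 cells of metastasis 2 and 5 of metastasis 1 held at least 3 ependymal markers against 1 and 0 naive cells. None of these held 3 endothelial markers as well. At least 3 mural markers were held by 7 cells of naive 1, 5 of naive 2, 4 of metastasis 1 and 13 of metastasis 2. The medians in cluster 6 were 717, 752.5, 949 and 1571 UMIs per cell.

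A feature of cluster 6 touches every CPM value in it. With metastases, 36 of the 280 cells held more than 8000 UMIs, against 1 of 253 naive cells, and those 36 cells held 57.1% of the cluster's UMIs. Their endothelial markers stood at 1741 CPM, against 8553 CPM in the other 244 cells and 9142 CPM in naive cells. The summed endothelial markers of the whole cluster stood at 10149 and 7752 CPM (naive 1 and naive 2) against 4645 and 4682 CPM (metastasis 1 and metastasis 2). Of the 36 deep cells, 25 still held at least 3 endothelial markers, at 2327 CPM. For this reason the level of each member in cluster 6 is given for all cells and for cells of up to 8000 UMIs; what the deep cells are was not tested.

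**Figure D1:**
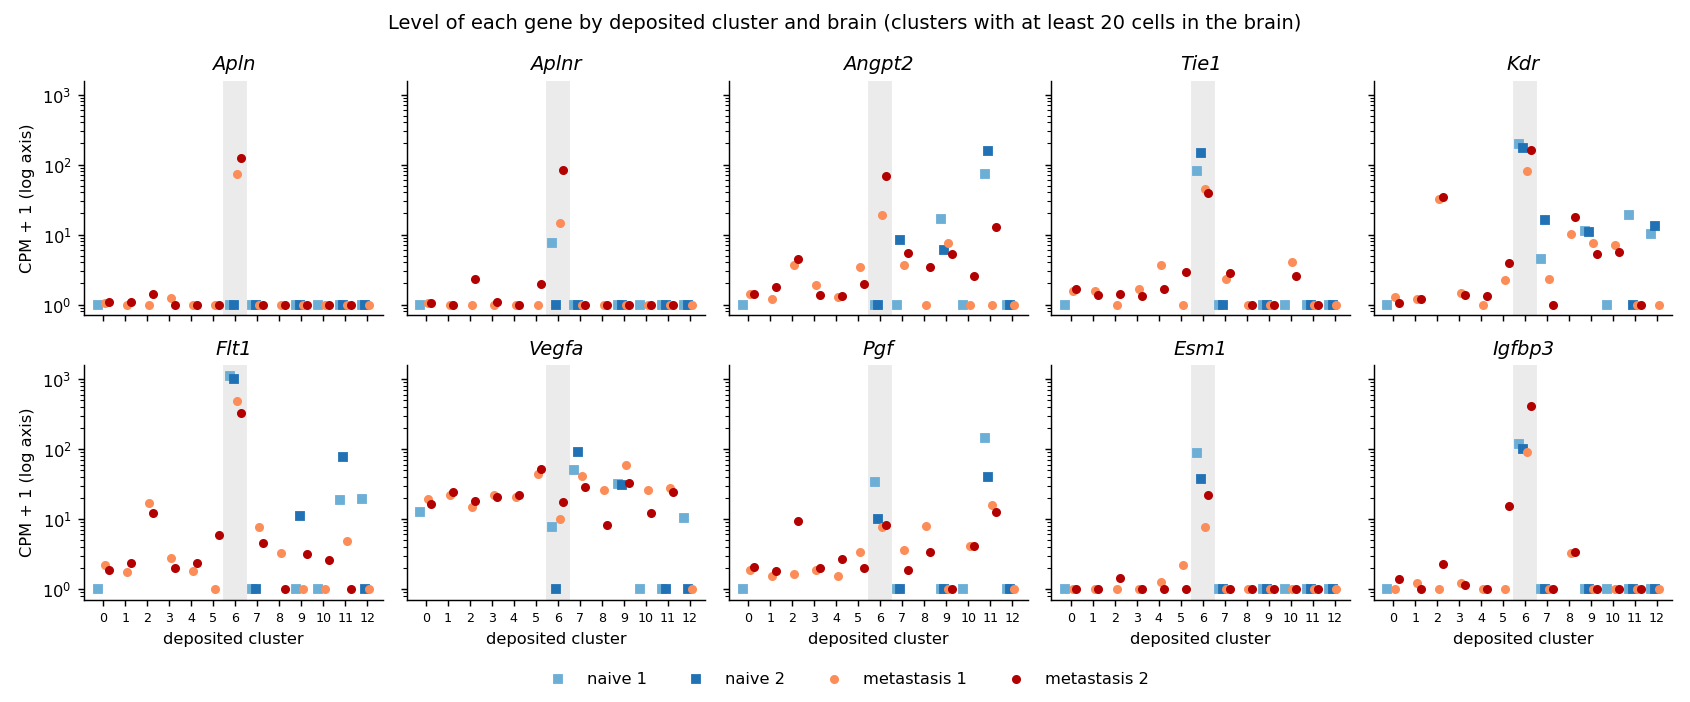
Level of each of the 10 genes (CPM + 1, log axis) in the 13 deposited clusters, numbered 0 to 12, with a square for each naive brain and a circle for each brain with metastases; cluster 6 is shaded. Apln stands above the axis floor in cluster 6 of the brains with metastases, at 72.6 and 125 CPM, while Vegfa is spread over most clusters.

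Apln, the gene of the peptide ligand apelin, was found in the endothelial-like cluster of both brains with metastases and in neither naive brain. The counts in cluster 6 were 0 UMIs in naive 1, 0 in naive 2, 32 in metastasis 1 and 53 in metastasis 2, or 72.6 and 125 CPM with metastases. The conditions did not overlap. Among cells of up to 8000 UMIs the levels were 189 and 188 CPM. Set against a floor of 3 UMIs over both naive brains, the level was at least 8.58-fold higher with metastases in all cells and at least 15.9-fold higher in cells of up to 8000 UMIs. In edgeR's quasi-likelihood test with Benjamini-Hochberg adjustment over 4539 genes, Apln was higher with metastases (adjusted p = 0.0141), and it was so in cells of up to 8000 UMIs (adjusted p = 0.0216), in cells with at least 3 endothelial markers (5.16e-04) and with both limits (8.14e-04). Of 6 members that passed the low-count filter, Apln was the 1 called higher, where 2.34% of all tested genes were. Apln passed that filter only through the brains with metastases, where it was high, and Aplnr and Angpt2 did not pass it. The call was lost without metastasis 2 (adjusted p = 0.196) and with no low-count filter (0.396), and DESeq2 gave no adjusted p. The fitted log2 change was of like size in these fits, at 7.12 and 7.84 against 7.80, and is no bound, since naive brains were at 0.

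Between cells of up to 8000 UMIs few other genes differed. There the test called 2 of 2766 genes (0.0723%), Apln and Ifit3, an interferon-induced gene, both higher with metastases, and 264 genes had an unadjusted p under 0.05. Apln was 1 of the 5 members tested, and it passed the low-count filter of this fit, too, only through the brains with metastases. With every cell thinned to 1000 UMIs the test called no gene (0.0%) of 1130, 211 of them with an unadjusted p under 0.05, and Apln fell below the filter.

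The share of cluster 6 cells with an Apln UMI was 0 of 155 in naive 1, which allows up to 1.94%, and 0 of 98 in naive 2, which allows up to 3.06%. It was 3.87% in metastasis 1 and 12.8% in metastasis 2. Thinned to 1000 UMIs, the shares were 4.05% of 74 cells and 11.8% of 85 cells with metastases, and 0 of 48 and 0 of 34 naive cells, which allow up to 6.25% and 8.82%. The naive limits at this depth thus lie above the share in metastasis 1. In cluster 0, whose cells were far deeper (medians 13259.5 and 15283 UMIs), 1 of 1640 and 2 of 1512 cells held an Apln UMI, which sets the background. With 2 brains in each condition no exact permutation test can fall below p = 0.333.

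Aplnr, the receptor of apelin, was also low or absent in naive brains. Cluster 6 held 1 and 0 naive UMIs (6.58 and 0 CPM), and 6 and 35 UMIs with metastases (13.6 and 82.5 CPM). Metastasis 2 was the higher by far. The pooled ratio of metastasis to naive was 12.4, with an exact 95% counting interval of 2.11 to 502. In cells of up to 8000 UMIs the levels were 6.58, 0, 25.2 and 118 CPM, with a ratio of 19.8 (3.29 to 809). Aplnr did not pass the low-count filter; with no filter edgeR's quasi-likelihood test did not call it (adjusted p = 0.555).

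Angpt2, the gene of angiopoietin-2, a ligand of the Tie2 receptor that loosens vessels, had 0 UMIs in cluster 6 of either naive brain. With metastases it had 8 and 29 UMIs (18.1 and 68.3 CPM; 37.8 and 80.0 CPM in cells of up to 8000 UMIs). The level was at least 3.73-fold higher, and at least 5.24-fold higher in cells of up to 8000 UMIs, against the same floor. The limit differed between the brains: against that floor metastasis 1 alone was at least 1.58-fold higher (3.20-fold in cells of up to 8000 UMIs) and metastasis 2 alone at least 5.97-fold (6.76-fold). Angpt2 too was below the low-count filter, and with no filter edgeR's quasi-likelihood test did not call it (adjusted p = 0.484). In cluster 11, where mural markers of pericytes and smooth muscle led the genes, the CPM ran the other way. Naive 1 and naive 2 held 4 UMIs each (71.7 and 154 CPM), and metastasis 1 and metastasis 2 held 0 and 5 (0 and 11.6 CPM). The change in cluster 6 minus that in cluster 11 was called in edgeR's quasi-likelihood test (adjusted p = 2.11e-04). In this direction 2.11% of 4221 genes were called. Angpt2 was the 1 called of 3 members for which the difference could be fitted (with Flt1 and Kdr). It passed the low-count filter of this fit only through the sums where it was high, naive cluster 11 and metastasis 2 of cluster 6. The call is therefore not independent of that height. Without metastasis 2 the call was lost (adjusted p = 0.447) while the fitted difference was no smaller, at 11.85 against 10.39 on the log2 scale; both depend on the prior count, as Angpt2 was at 0 in naive cluster 6. Cells of cluster 11 had medians of 814 and 871 UMIs in naive brains and of 9974 and 10370 UMIs with metastases. Mural markers in cluster 11 stood at 14331 and 25836 CPM in naive cells and at 2558 and 1973 CPM with metastases. The part of depth and of these markers in the result was not tested.

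Flt1, the decoy-like VEGF receptor, had the most UMIs of the members in cluster 6 summed over the brains (Igfbp3 had more in metastasis 2), with 167, 111, 211 and 137 UMIs in naive 1, naive 2, metastasis 1 and metastasis 2. Its levels over all cells were 1099, 1009, 479 and 323 CPM, without overlap. It was lower with metastases by edgeR's quasi-likelihood test (log2 change -1.38, SE 0.24, adjusted p = 0.0141), the 1 member called lower where 5.24% of all genes were. In cells of up to 8000 UMIs the levels were 1099, 1062, 1166 and 499 CPM, so that metastasis 1 no longer lay below the naive brains, and the call was lost (log2 change -0.42, adjusted p = 0.743). It was also lost with thinned cells (-0.63, 0.415) and without metastasis 2 (-1.09, 0.0740). Per 1000 endothelial-marker UMIs Flt1 stood at 108, 130, 103 and 68.9. The share of cells with a UMI was 53.5%, 53.1%, 52.3% and 39.2%, and at an equal depth of 1000 UMIs 54.2%, 58.8%, 44.6% and 27.1%, so that both brains with metastases lay lower. With 500 UMIs it was 41.9%, 42.9%, 29.7% and 16.8% (exact permutation p = 0.333, the smallest that 2 brains in each condition allow). Both thinned sets still held the 36 deep cells, with endothelial markers at 818 CPM in metastasis 1 and 2970 CPM in metastasis 2. Thinning evens depth only, and the part of these cells in the shares was not tested. The unthinned shares stand against 1.71% and 1.39% of the deeper cells of cluster 0 with metastases.

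Kdr, the main signalling receptor of VEGF-A, gave no called difference. Its levels were 197, 173, 79.4 and 158 CPM, and 197, 187, 202 and 254 CPM in cells of up to 8000 UMIs. The order of the conditions turned with that limit (log2 change -0.65, adjusted p = 0.295 in all cells; 0.23, adjusted p = 0.863 in cells of up to 8000 UMIs; edgeR's quasi-likelihood test). Tie1, an orphan receptor that pairs with Tie2, stood at 79.0, 145, 43.1 and 37.7 CPM and was not called (log2 change -1.41, SE 0.43, adjusted p = 0.0700). In cells with at least 3 endothelial markers, deep cells included, edgeR's test called Apln higher, where 7.96% of all genes were, and both Flt1 (-1.40, adjusted p = 1.78e-04) and Tie1 (adjusted p = 0.0357) lower, as it did 10.4% of all genes. In cells of up to 8000 UMIs Tie1 stood at 79.0, 157, 113 and 61.1 CPM (log2 change -0.43, adjusted p = 0.825).

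The secreted members went different ways. Esm1, the gene of endocan, a proteoglycan of VEGF-stimulated endothelium, had 13, 4, 3 and 9 UMIs in cluster 6, or 85.6, 36.4, 6.80 and 21.2 CPM (edgeR's quasi-likelihood test, log2 change -2.16, SE 0.63, adjusted p = 0.0602). In cells of up to 8000 UMIs it stood at 85.6, 39.3, 18.9 and 42.3 CPM, and the conditions overlapped. Esm1, a tip cell gene like Apln, was thus present in naive brains and not higher with metastases. Igfbp3, a carrier of insulin-like growth factors, had 18, 11, 40 and 177 UMIs, or 118, 99.97, 90.7 and 417 CPM. The high level was that of metastasis 2, and metastasis 1 lay below both naive brains. No difference was called with both brains (log2 change 1.19, SE 0.61, adjusted p = 0.252); without metastasis 1 it was called (1.95, 8.52e-05) and without metastasis 2 the sign turned (-0.23, 0.721), so the value is that of a single brain. In cells of up to 8000 UMIs both brains lay above the naive ones, at 158 and 630 against 118 and 108 CPM, and no difference was called (1.80, adjusted p = 0.349).

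The ligands Vegfa and Pgf were scarce in cluster 6. Vegfa had 1, 0, 4 and 7 UMIs, a pooled ratio of 3.33 with a 95% counting interval of 0.484 to 143, and 7 of its 10 cells with metastases held over 8000 UMIs. Pgf, the gene of placental growth factor, a ligand of VEGFR1, had 5, 1, 3 and 3 UMIs. Within the limit of 8000 UMIs Vegfa had 1, 0, 0 and 3 UMIs and Pgf 5, 1, 2 and 3. Neither passed the low-count filter, and with no filter edgeR's quasi-likelihood test called neither (adjusted p = 0.677 and 0.619).

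**Figure D2:**
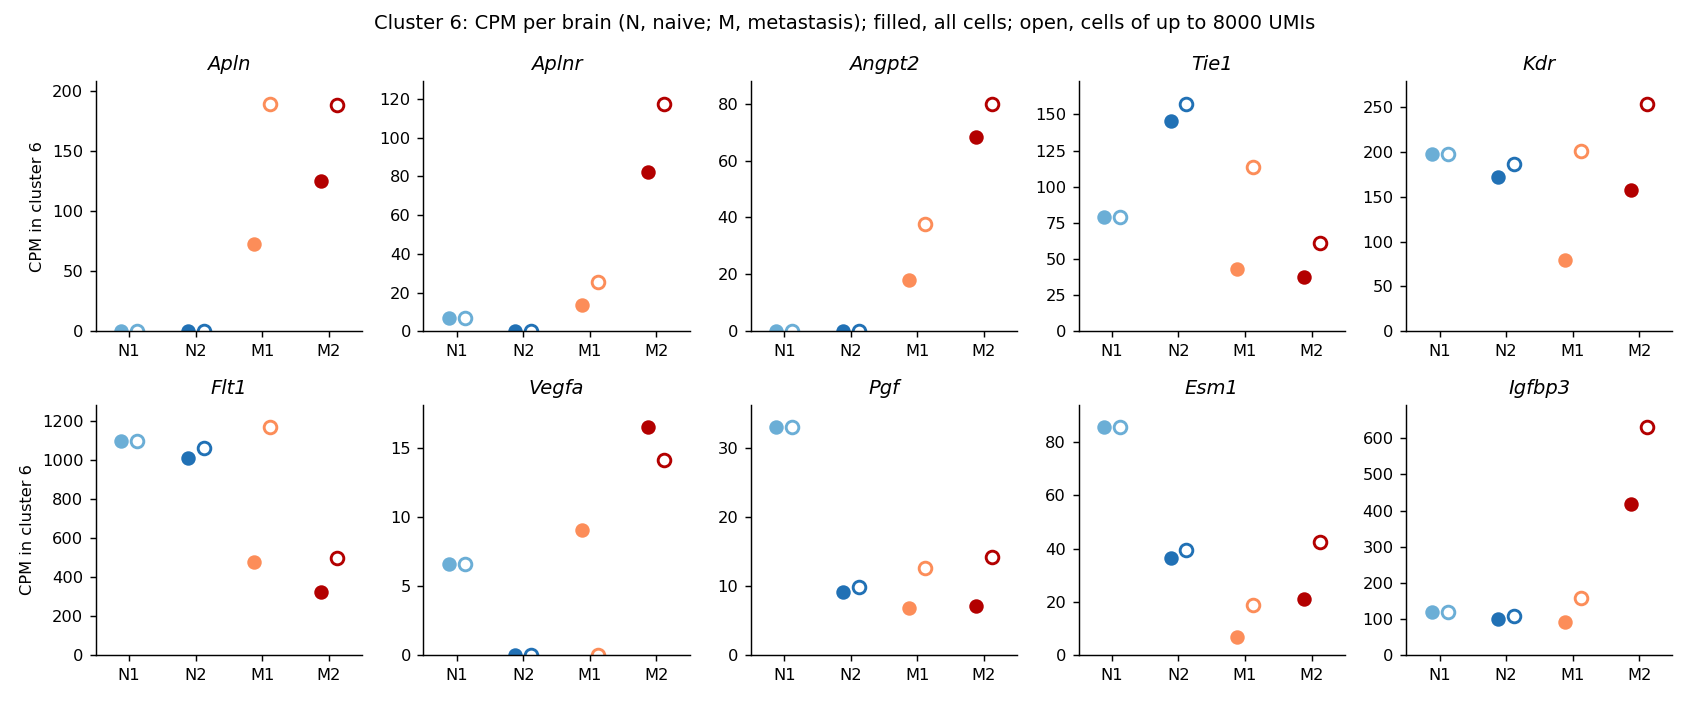
CPM of each gene in cluster 6, for naive brains (N1, N2) and brains with metastases (M1, M2); filled points are all cells and open points are cells of up to 8000 UMIs. Apln and Angpt2 lie at 0 in both naive brains, Igfbp3 is high in M2, and the open points of Flt1 and Kdr in M1 lie far above the filled ones, at 1166 against 479 CPM and 202 against 79.4 CPM.

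The 22 cells with Apln were examined one by one. They were 6 cells of metastasis 1 and 16 of metastasis 2, and each held UMIs of at least 5 endothelial markers and at least 1 other member. Their median was 5531.5 UMIs, with a range of 1063 to 21255, and 5 of them held over 8000 UMIs. None held 3 ependymal markers. Apln was seen once in 7 cells, 2 to 9 times in the other 15 cells, and 8 times in 3 of them, so most of its UMIs came in groups within a cell.

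**Figure D3:**
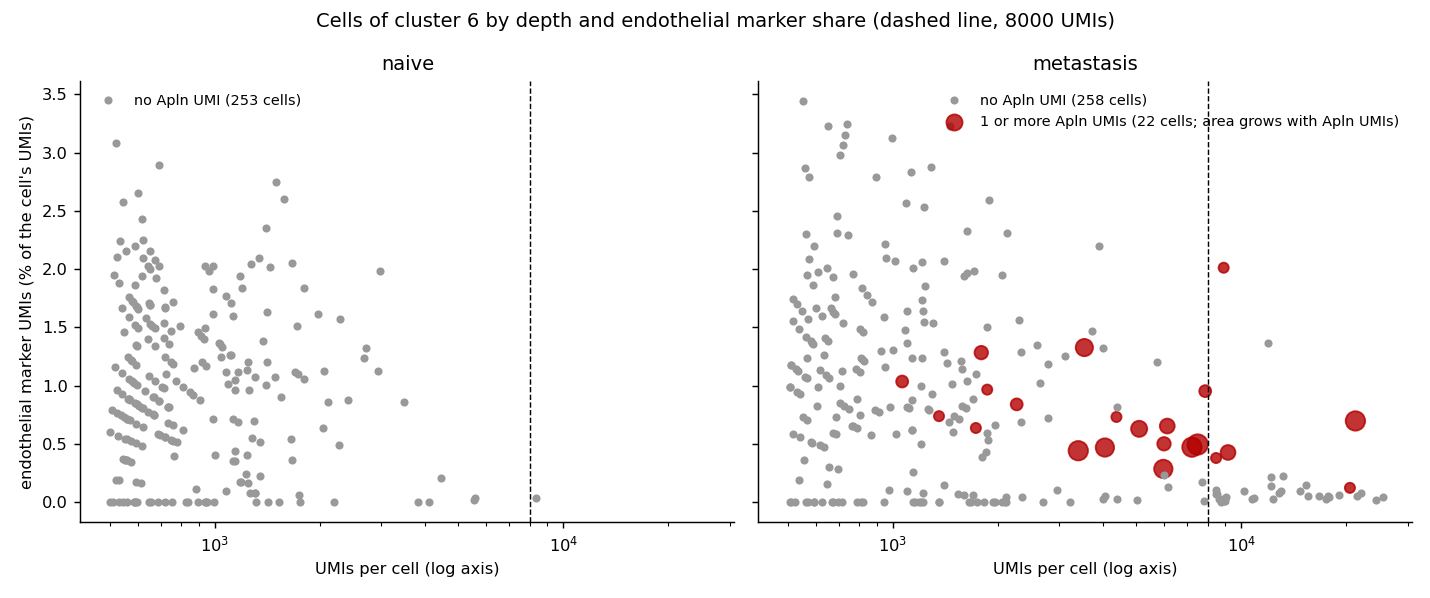
Cells of cluster 6 in naive brains (253 cells) and brains with metastases (258 cells without Apln, 22 with it), by UMIs per cell (log axis) and by the percent of those UMIs that came from endothelial markers; red circles grow with Apln UMIs and the dashed line marks 8000 UMIs. Apln cells lie between 1063 and 21255 UMIs, and 17 of 22 lie left of the dashed line.

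To see what these cells shared, they were set beside cells of the same brain that also held at least 3 endothelial markers and 1000 UMIs: 6 cells against 52 in metastasis 1, and 16 against 40 in metastasis 2. Cells are not replicates, so these values are a description without a test. The cells with Apln were deeper (pooled medians 5531.5 against 1720.5 UMIs), so shares of cells with a UMI are given after CPM, which takes depth into account. Aplnr stood at 63.2 against 11.8 CPM in metastasis 1 and at 282 against 51.2 CPM in metastasis 2. Angpt2 stood at 63.2 against 15.7 CPM and at 239 against 34.1 CPM. The cells were picked by their Apln UMIs, so the height of Apln itself in them was fixed in advance. In metastasis 2 the CPM of Aplnr and Angpt2 was higher in these cells. In metastasis 1 the CPM ran the same way but rests on too few UMIs for an order. All of its cluster 6 held only 6 Aplnr and 8 Angpt2 UMIs. Igfbp3 stood at 358 against 66.7 CPM and at 913 against 404 CPM. The VEGF receptors differed less: Kdr stood at 105 against 94.2 and 272 against 193 CPM, and Flt1 at 379 against 490 and 456 against 438 CPM. Tie1 was higher with Apln in metastasis 1 (63.2 against 43.2 CPM) and lower in metastasis 2 (43.5 against 62.6 CPM).

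At lower depth Angpt2 and Aplnr were still the higher with Apln in metastasis 2, and metastasis 1 held too few UMIs of either for an order. The CPM of Igfbp3 was the lower in both brains. When only cells of up to 8000 UMIs were kept, 17 with and 72 without Apln, Aplnr stood at 54.1 against 43.6 CPM in metastasis 1 and at 360.3 against 81.2 CPM in metastasis 2. The first pair is 1 UMI in 4 cells against 3 UMIs in 39, and shows no order. Angpt2 stood at 162 against 43.6 and 228 against 54.2 CPM, and Igfbp3 at 162 against 233 and 796 against 948 CPM. In metastasis 1 these values rest on few UMIs: all its cluster 6 cells within that limit held 6 of Angpt2 and 25 of Igfbp3. Kdr stood at 162 against 334 and 379 against 352 CPM, and Flt1 at 432 against 1599 and 645 against 731 CPM. Esm1 had UMIs in 2 of the 22 cells, and Vegfa and Pgf in none.

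Counted as cells, 63.6% of the 22 cells with Apln also held Aplnr (7.61% of those without), 50% held Angpt2 (9.78%), 72.7% held Igfbp3 (25%), 59.1% held Kdr (37.0%) and 77.3% held Flt1 (71.7%). Ligand and receptor were therefore often seen together: of 28 cells with Apln and 28 with Aplnr among all cells with metastases, 14 held both. Vegfa was found in 1739 cells, or 15.1% of all cells with metastases. Of 203 cells with Kdr, 12 held it (5.91%), below the share over all cells. Of 288 cells with Flt1, 37 did (12.8%), nearer to that share. Depth differs between the clusters that hold these genes, and no test was made. Within cluster 6 with metastases, 40 cells held both Kdr and Flt1, and 8 of the 9 cells with Esm1 also held Igfbp3 while 2 held Apln.

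A pair of genes of the vessel basement membrane, Col4a1 and Col4a2, the chains of type IV collagen, were among the highest of 69 listed genes in the Apln cells against the others; they were picked by size after their values were seen. All values in this paragraph include the cells of over 8000 UMIs. In metastasis 1, 15 such deep cells with at least 3 endothelial markers held 215011 UMIs, with those markers at 1005 CPM. The 111 cells of up to 8000 UMIs with as many markers held 133072 UMIs, at 13376 CPM. The part of the deep cells in these differences was not tested. Col4a1 stood at 780 against 126 CPM in metastasis 1 and 1249 against 250 CPM in metastasis 2. Col4a2 stood at 506 against 74.6 and 782 against 250 CPM. Trp53i11 (169 against 3.92 and 304 against 68.3 CPM) was higher as well, as was Cd34, a surface sialomucin of endothelium and progenitors (464 against 126 and 543 against 193 CPM). Not all matrix genes went that way. Timp3, an inhibitor of matrix proteases, stood at 63.2 against 200.1 and 97.8 against 478 CPM, and Loxl2, a collagen crosslinking enzyme, at 42.1 against 180.5 and 0 against 73.96 CPM. A pair of genes of arterial vessels were low in the same cells, and were not the only vessel genes that were. Mgp, an inhibitor of calcification, stood at 0 against 192 and 21.7 against 2566 CPM, and Gkn3, a gene of brain arterial endothelium, had no UMI in the 22 cells, against 224 and 56.9 CPM. Spock2, a capillary gene (42.1 against 153 and 0 against 154 CPM), and Icam1, listed for leaky and venous vessels (21.1 against 102 and 54.3 against 182 CPM), were lower too. Emcn, listed for leaky vessels (379 against 78.5 and 391 against 137 CPM), and Stmn1, a proliferation gene (590 against 165 and 782 against 290 CPM), were higher.

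**Figure D4:**
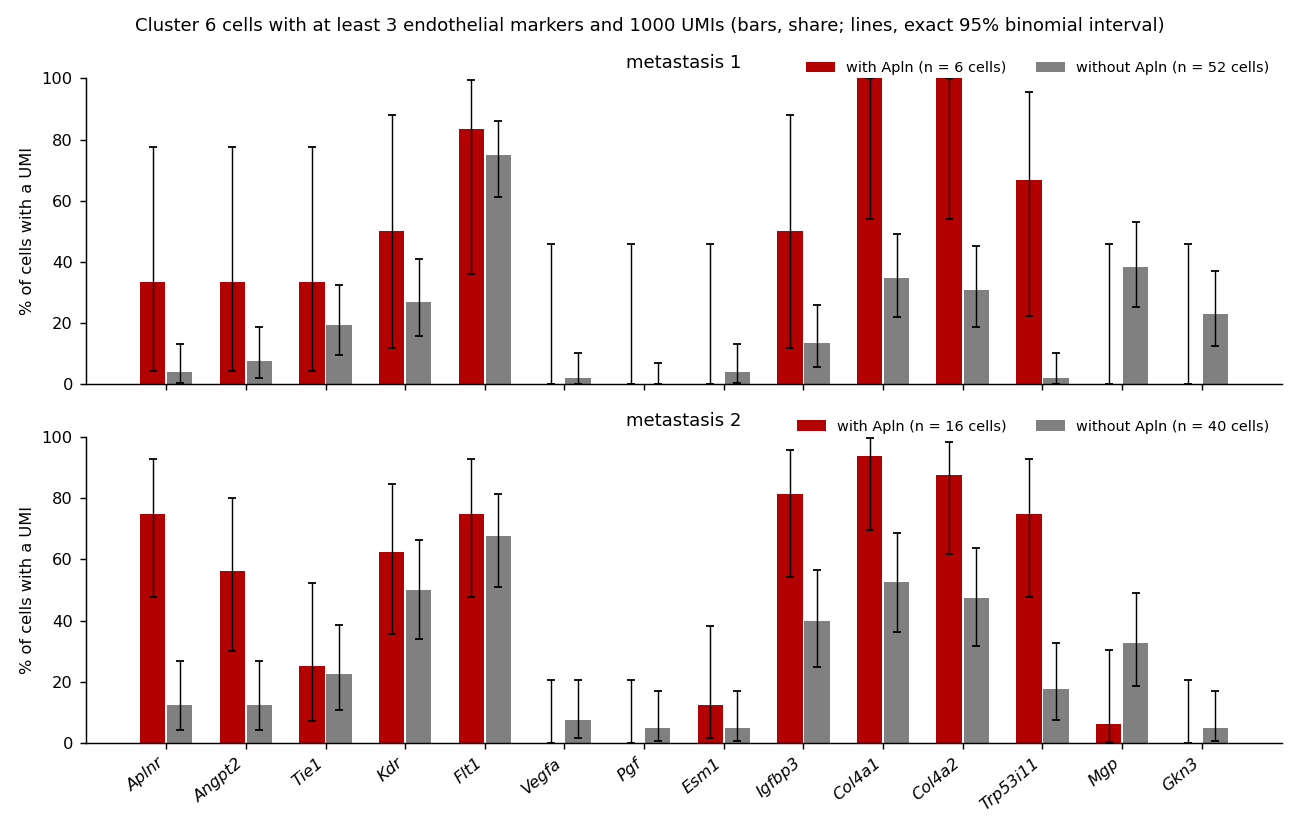
Percent of cells with a UMI of each gene, for cells of cluster 6 with and without Apln (at least 3 endothelial markers and 1000 UMIs), in metastasis 1 (6 and 52 cells) and metastasis 2 (16 and 40 cells), with exact 95% binomial intervals that cover counting error only. Aplnr, Angpt2, Col4a1 and Col4a2 are more frequent with Apln in both brains, while Gkn3 has no UMI in any Apln cell; the Apln cells were deeper (pooled medians 5531.5 and 1720.5 UMIs).

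Over all cluster 6 cells of at least 1000 UMIs, thinned to that depth, the 10 genes whose share differed most between cells with and without Apln in both brains were Gpx1, Tubb5, Igfbp7, Col4a2, Sumo2, Anxa2, Col4a1, Tpm4, Msn and Nme1. Both collagen chains are on this list at equal depth, but the cells with Apln are the same 22, so it is no separate support. Of the 137 cells without Apln, 92 held at least 3 endothelial markers and 19 held at least 3 ependymal markers. All 22 cells with Apln held at least 3 endothelial markers. The part of this unlike make-up in the 10 genes was not tested. Gpx1, a glutathione peroxidase, was seen in 83.3% against 38.2% of cells in metastasis 1 and 87.5% against 33.3% in metastasis 2. Tubb5 is a tubulin, Tpm4 a tropomyosin and Msn (moesin) a linker of membrane and actin.

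Likeness was also measured over clusters, as Pearson's r of log2(CPM + 20) over 37 sums of a cluster in a brain, among 12693 genes. The points share brains, the library and depth, so r is a description. The genes most like Apln were Tmem212 (0.970), Nnat (0.967), Lrrc74b (0.952), Ccdc153 (0.946) and Tspan15 (0.918). Tmem212 and Ccdc153 are on the ependymal list, and the 22 Apln cells held no Tmem212 UMI, so this likeness is one of cluster 6 sums and not of cells. Among the members r was 0.772 for Igfbp3, 0.551 for Kdr, 0.538 for Flt1, 0.458 for Tie1, 0.436 for Angpt2, 0.0499 for Pgf and -0.0876 for Vegfa.

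The sources of the 10 genes fell into 3 kinds. Apln, Aplnr, Igfbp3, Esm1 and Flt1 came mostly from cluster 6 in both brains with metastases. That cluster held 94.1% and 93.0% of the Apln UMIs of metastasis 1 and metastasis 2, 85.7% and 85.4% of Aplnr, 90.9% and 85.5% of Igfbp3, 60.0% and 90.0% of Esm1, and 73.3% and 60.4% of Flt1. The same cluster held 0.837% of all UMIs with metastases. Cluster 6 was also the main source in naive brains for Flt1 (97.2%), Kdr (81.7%) and Tie1 (all 28 UMIs).

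Angpt2, Tie1 and Pgf were divided. Cluster 6 held 22.2% and 38.2% of Angpt2 and the 5 large clusters 50% and 32.9%, at a level of only 0.436 and 0.483 CPM in the latter. In naive brains 61.5% of the 13 Angpt2 UMIs lay in cluster 11 and 38.5% in clusters 7 and 9. Tie1 had 36.5% and 33.3% in cluster 6 and 59.6% and 58.3% in the 5 large clusters. Pgf had 70.2% and 63.1% in those 5 clusters, and 60.0% of its 15 naive UMIs in cluster 11. The shares of the 5 clusters are to be read beside their size: they held 90.1% of all UMIs with metastases, more than their part of any of these 3 genes.

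Vegfa, the member with the most UMIs (2037 with metastases), came from the large clusters. They held 87.5% and 89.8% of its UMIs, close to their share of all UMIs. Levels there were even between clusters 0, 1, 3 and 4, at 15.4 to 23.2 CPM in both brains, and higher in cluster 5, at 43.4 and 49.98 CPM. Mitochondrial genes led cluster 5, and the part of RNA quality in that level was not tested. In naive brains 65.5% of 58 Vegfa UMIs came from clusters 7 and 9, which were choroid plexus-like, with 4 of 10 leading genes on the fixed list, among them Ttr and Enpp2. The choroid plexus, which makes cerebrospinal fluid, is known to express VEGF-A for the upkeep of its fenestrated capillaries.

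In cluster 7 Vegfa stood at 49.0 and 89.7 CPM in naive 1 and naive 2 and at 39.8 and 27.6 CPM with metastases. The conditions did not overlap, but the difference was not called by edgeR's quasi-likelihood test (log2 change -1.20, SE 0.42, adjusted p = 0.0517), in a cluster where 16.9% of 5963 genes were called lower. Choroid plexus markers there went from 284021 and 268652 CPM to 128159 and 76292 CPM, and their part in the Vegfa value was not tested. In cluster 9 it stood at 30.9, 29.6, 58.8 and 31.8 CPM (log2 change 0.54, SE 0.48, adjusted p = 0.659), where 3.83% of 3473 genes were called higher. Whether the change in cluster 6 differed from that in cluster 7 or 9 could be fitted for 4 members against cluster 7 (Flt1, Kdr, Tie1 and Vegfa) and for 2 against cluster 9 (Flt1 and Kdr). None was called by edgeR's test, against 3.51% of 6092 genes and 1.12% of 5531 genes, and the adjusted p ran from 0.167 for Flt1 against cluster 7 to 0.982 for Kdr against cluster 9. For Apln and Igfbp3, which had 0 UMIs in clusters 7, 9 and 11 of every brain, the difference could not be fitted.

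Cells with Vegfa were set beside other cells of their cluster for a list of hypoxia response genes, which are induced with VEGF-A when oxygen is short. In cluster 0 the list summed to 4591 against 4443 CPM in metastasis 1 and 4864 against 4584 CPM in metastasis 2. The difference was small in this largest cluster. The sum was also higher with Vegfa in both brains in cluster 1 (4429.5 against 4323 and 4901 against 4480 CPM). So it was in cluster 7 (3911 against 3354 and 4678 against 4216 CPM) and in cluster 9 of metastasis 1 (2466 against 1855 CPM). Clusters 2, 3 and 4 differed by brain. The sum was lower with Vegfa there in metastasis 1 (2012 against 2149, 4718 against 4753 and 3997 against 4025 CPM). It was higher in metastasis 2 (3001 against 2264, 5561 against 5217 and 4265 against 4050 CPM). In cluster 5, where Vegfa was highest, the sum stood at 4550 against 4038 and 4807 against 4589 CPM. Its genes did not all go one way there: Ndrg1 stood at 216 against 138 and 361 against 246 CPM, and Ldha, lactate dehydrogenase, at 1711 against 1509 and 1739 against 1789 CPM. Cells with Vegfa were deeper than the others in every cluster compared (in cluster 7 of metastasis 2, medians of 12498 and 3780 UMIs).

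**Figure D5:**
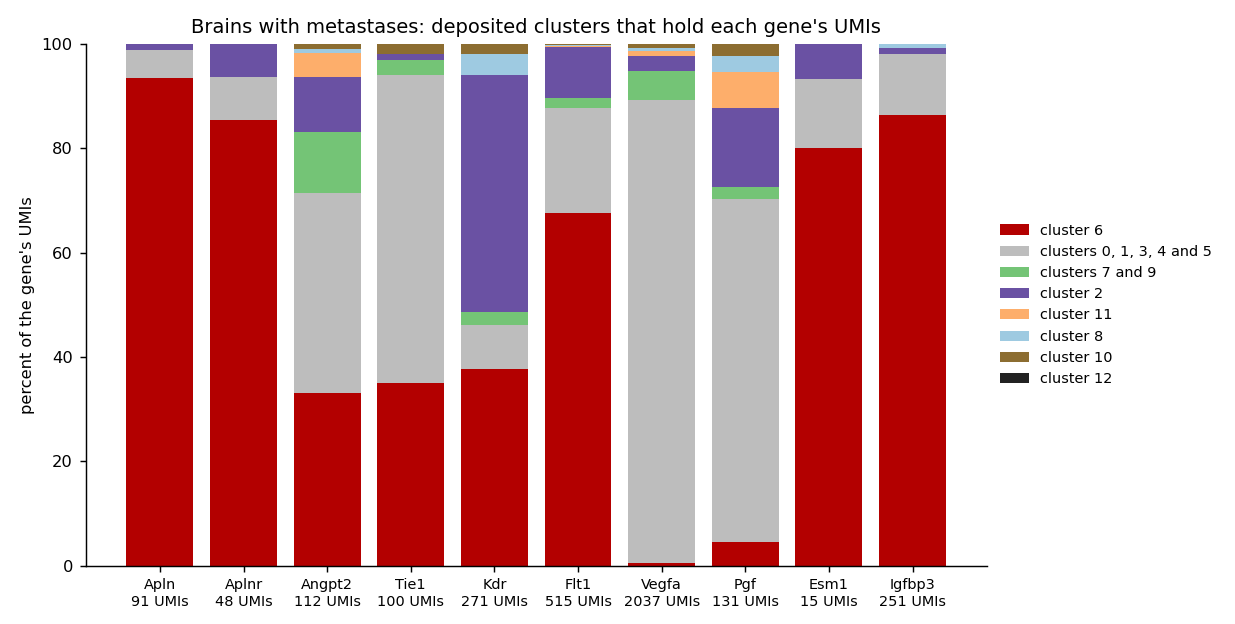
Percent of each gene's UMIs held by each cluster or group of clusters in the brains with metastases, with the number of UMIs under each bar. Cluster 6 makes up most of the bars of Apln, Aplnr, Igfbp3, Esm1 and Flt1, cluster 2 the largest part of Kdr, and clusters 0, 1, 3, 4 and 5 most of the bar of Vegfa.

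Kdr had a further source in an immune cluster. Cluster 2, which was monocyte and macrophage-like with Lyz2 and Plac8 among its leading genes, held 45.2% and 45.5% of the Kdr UMIs of metastasis 1 and metastasis 2, more than the 33.7% and 40.1% of cluster 6. These were 47 and 76 UMIs in 37 of 718 and 64 of 1063 cells, at 30.8 and 33.0 CPM. Only 1 of those 101 cells held 3 endothelial markers. Summed endothelial markers stood at 145 CPM in them and at 94.0 CPM in the other 1680 cells of the cluster, against 8553 CPM in the cluster 6 cells of up to 8000 UMIs, and Cldn5 at 8.87 against 10.9 CPM. They were deeper (medians 2301 and 1459.5 UMIs) and held more CD45 tags, the leukocyte antigen (medians 222 and 114). The interferon-induced gene Isg15 stood at 2007 against 1118 CPM and Ms4a7, a macrophage gene, at 1064 against 912 CPM.

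At equal depth Kdr was seen in a larger share of cells in cluster 2 than in clusters 0 and 7. Thinned to 1000 UMIs, 2.88% and 2.70% of its cells held a Kdr UMI, against 0 of 1640 and 0 of 1511 cells of cluster 0 in the same brains, and 0.699% and 0 in cluster 7. Cluster 0 cells were far deeper before thinning (medians 13259.5 and 15283 against 1547.5 and 1466 UMIs in cluster 2). Their share is therefore no measure of free RNA in cluster 2, whose part was not tested. Clusters 8 and 10 of metastasis 1 and metastasis 2 held Kdr as well, at 9.18 and 16.9 CPM and at 6.17 and 4.71 CPM. Naive brains gave only 15 cells of cluster 2, with no Kdr UMI, and no comparison of conditions was made. Flt1, a receptor known from monocytes, had 24 and 26 UMIs in cluster 2, and Pgf 1 and 19, the latter in 8 cells with up to 5 UMIs in a cell.

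The pathways around the members were read from gene lists in cluster 6, over all its cells, by the same edgeR test (median log2 change of all 4539 genes 0.01). Counts of 1 or 2 called genes are to be read beside the 2.34% of all genes called higher and the 5.24% called lower. Among VEGF ligands and receptors 4 of 10 genes were measured, and 0 rose and 1 fell (Flt1; median -0.93). Of the angiopoietin and Tie list 3 of 7 were measured, and 1 fell, Ptprb, the phosphatase that restrains Tie2 (log2 change -1.51; median -1.41). Of the tip cell list 14 of 23 were measured and Apln alone rose (median -0.45), and of the apelin list Apln alone was measured. Of the Notch list 6 of 13 were measured and Jag1, a Notch ligand of stalk cells, fell (-1.74; median -0.67). 

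Genes of the barrier and of the vessel beds followed. Of 8 of 13 measured genes of endothelial Wnt signalling, which maintains the blood-brain barrier, 4 fell, namely Lef1 (log2 change -2.01), Foxf2 (-1.68), Sox17 (-1.54) and Foxq1 (-1.26), and none rose (median -1.40). Capillary genes fell in 3 of 9 (Cxcl12 -1.80, Car4 -1.73 and Spock2 -1.42; median -0.93), arterial genes in 1 of 7 (Fbln5 -2.20; median -1.51), and fenestrated endothelium genes in 3 of 11 (Emcn -1.53, Plpp3 -1.47 and Plpp1 -1.23; median -0.45). Of 8 venous genes 1 rose (Tmsb10, 1.17; median -0.54). Of 12 hypoxia genes 2 fell, Slc2a1 (-1.07) and Ndrg1 (-1.03), and the median was 0.12. Of 14 basement membrane and matrix genes 2 fell, the protease Adamts1 (-2.07) and the protease inhibitor Timp3 (-1.58), while the median was 0.77. Of 7 insulin-like growth factor binding genes none was called (median 0.35). Of 8 angiogenesis inhibitors 3 fell (Adamts1, Timp3 and Flt1; median -0.96).

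Proliferation genes rose in 3 of 17, namely Ube2c (1.79), Top2a (1.40) and Hmgb2 (1.00), with a median of 1.22. Of 17 other angiogenic ligands 1 rose, Lgals3 (0.86), and 4 fell, Sema3c (-2.49), Edn1 (-2.06), Cxcl12 (-1.80) and Ptn (-1.75; median -0.37). In cells with at least 3 endothelial markers, deep cells included, where 7.96% of 3394 genes were called higher and 10.4% lower, more genes of some lists were called. Of the tip cell list 4 of 11 rose (Apln, Plaur, Col4a2 and Col4a1) and 2 fell, of basement membrane and matrix genes 3 of 9 rose (Timp1, Col4a2 and Col4a1) and 2 fell, of hypoxia genes 2 of 9 rose (Pgk1 and Ldha) and 2 fell, and of insulin-like growth factor binding genes Igfbp6 rose. Of Wnt genes 5 of 8 fell there. In cells of up to 8000 UMIs no gene of these lists was called except Apln, and the medians were -0.49 for Wnt, 0.23 for tip cell, 0.88 for basement membrane and 0.24 for proliferation genes. The called falls and rises of the lists, Apln apart, were thus not called without the 36 deep cells, in which endothelial markers were low; their part in each gene was not tested.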

How the data were processed

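The members, gene lists and markers were chosen with earlier results of these data known. The RNA values were UMI counts as deposited, which the authors had not normalised, and the deposited cell table holds the cluster, condition and brain, the percent of mitochondrial UMIs as the authors computed it, and a hashing margin score. Cell Ranger 3.0.2, Seurat 3.0.1 and the build mm10 are named, per the submitters' processing notes; their settings are not given here. All 12421 cells were kept, and no doublet caller was run. Brains were pooled before loading and thus share free RNA. The labels do not state separate animals apart from the hashing, so the spread behind each p-value is that between 4 suspensions.

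Counts were summed per cluster and brain (at least 20 cells) and tested with edgeR 4.0.16 in R 4.3.3 (TMM scaling, filterByExpr, glmQLFit and glmQLFTest, 2 brains against 2, two-sided). P-values were adjusted by Benjamini-Hochberg over all genes tested, and called means an adjusted p under 0.05. DESeq2 1.42.0, RLE scaling, no filter, thinned cells, cell subsets and each brain left out were alternatives. The limit of 8000 UMIs, the limit on ependymal markers, the margin limit of 1 and the scale per 1000 endothelial-marker UMIs were chosen after seeing the data. Cluster pairs were compared by an interaction term. The fits were tested on simulated data. Shares carry exact Clopper-Pearson intervals, ratios exact conditional ones, both for counting error only, at 95% confidence; a count of 0 was bounded by 3 counts. Named were every member, up to 4 called genes of each list by adjusted p, the 5 genes most like Apln over sums (at least 50 UMIs) and 10 over cells; genes of the Apln cells beside these were picked by size. Clusters were named from fixed markers and their 10 leading genes. Promoter windows are RefSeq's.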

Additional observations from a re-analysis of the deposited data

Results flagged for a closer look

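The CPM of Angpt2 changed in opposite directions in the endothelial-like cluster 6 and in cluster 11, where its UMIs did not fall in metastasis 2. The test of the difference itself, edgeR's interaction term, gave a log2 value of 10.39 (SE 2.15, adjusted p = 2.11e-04), which depends on the prior count, since Angpt2 had 0 UMIs in naive cluster 6, and is no bound. The counts were 0, 0, 8 and 29 UMIs in cluster 6 and 4, 4, 0 and 5 in cluster 11, for naive 1, naive 2, metastasis 1 and metastasis 2. Angpt2 passed the low-count filter of this fit only through the sums where it was high, so the call is not independent of that height. Over the alternatives the value ran from 9.77 to 11.85, and the adjusted p from 2.11e-04 to 0.447, the highest without metastasis 2, where the value was 11.85. The mural markers that name cluster 11 stood at 14331 and 25836 CPM in its naive cells and at 2558 and 1973 CPM with metastases. Its medians were 814 and 871 UMIs per cell in naive brains and 9974 and 10370 with metastases. The part of these markers and of depth in the result was not tested.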

How the results depend on the processing

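With 2 brains in each condition and few UMIs of most members, a call can be lost with 1 brain while the fitted change is of like size. Of the values for single members under an alternative, 126 kept direction and side of the threshold, 10 gained and 8 lost a call, 7 changed sign and 6 moved. In cluster 6 the test called 344 genes; DESeq2 called 172, cells of up to 8000 UMIs gave 2, thinned cells 0 (edgeR's test, 211 at an unadjusted p under 0.05), cells with 3 endothelial markers 623, both limits 3, no low-count filter 0 (1428 unadjusted), cells without mural markers 210, cells without 3 ependymal markers 449 (Apln adjusted p = 0.00402; chosen after seeing the data), and leaving out a brain 51 (without metastasis 2) to 391. In cluster 7 it called 1856 genes, DESeq2 780, thinned cells 199, and leaving out a brain 1188 to 1988. In cluster 9 it called 149, DESeq2 67, thinned cells 3, and leaving out a brain 4 to 96. In cluster 11 it called 422, DESeq2 245, and leaving out a brain 0 (without metastasis 2; 210 unadjusted) to 376. Differences between clusters, with a brain left out, were 39 to 242 genes for cluster 6 minus 7 (214 with all), 7 to 86 for 6 minus 9 (62) and 3 to 187 for 6 minus 11 (93).

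Kdr in cluster 6 changed sign in cells of up to 8000 UMIs (0.23), thinned cells (0.045) and cells with both limits (0.18). Leaving out a brain, Igfbp3 in cluster 6 ran from -0.23 to 1.95, Flt1 in cluster 6 minus 9 from -3.63 to 3.00 and Kdr in cluster 6 minus 9 from -0.47 to 1.14. Of 9 members, 6 were in a larger share of cells with than without Apln, and 3 with thinned cells. Cluster 6 held 93.4% of Apln UMIs, and 98.8% without clusters 0, 1, 3, 4 and 5. Those clusters held 87.1% of Vegfa UMIs, 88.8% without naive brains, and 84.0% to 86.7% leaving out a brain with metastases. The cause of these shifts was not tested. Esm1 was called with RLE scaling, with the hashing margin and without naive 2, Tie1 with the hashing margin, in cells with 3 endothelial markers and without naive 1, and Vegfa in cluster 7 with RLE scaling and without metastasis 1 or naive 1. No paired analysis was possible because the brains share no replicate label across conditions. Cells without any UMI of the carcinoma, choroid plexus, myeloid and lymphoid markers were too few to fit (under 20 in a brain), and thinned cells of cluster 11 were not fitted.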
